A study of Mus musculus with 66 samples.

Results

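Regions where the histone variant H3.3 was gained or lost close to the 3' end of a gene were examined in mouse neurons and in sorted hippocampal nuclei. H3.3 is a variant of histone H3 whose deposition does not need DNA replication, and it fills in where H3 copies are evicted as RNA polymerase passes. It is known for enrichment over transcribed genes, including the stretch around the site where transcription ends, and neurons, which no longer divide, depend on it for new H3. Chromatin immunoprecipitation sequencing (ChIP-seq) reads how many DNA fragments an antibody to H3.3 pulled down from each place in the genome.

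A region counted as near a 3' end when the authors had labelled it as gene body and its midpoint lay within 5000 bp of the 3' end of the transcript they assigned to it. Of 4651 regions listed as changed in the 5 H3.3 tables, 275 met this rule, out of 2179 labelled as gene body, and they belonged to 271 genes. There were 17 after 30 min of KCl, 34 after 2 hr, 49 after 5 hr, 129 in NeuN+ nuclei and 46 in NeuN- nuclei. The rule did not use direction: a region is called gained where the mean normalised read count was higher in the KCl or enriched group than in the control or normally housed group, and lost in the opposite case.

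All samples came from C57bl/6 mice. Cortical neurons taken from embryos at E16.5 and kept 8 days in vitro were treated with KCl, which depolarises the membrane, for 30 min, 2 hr or 5 hr, or were left unstimulated for the same time. Nuclei of hippocampus from mice about 7 weeks old, after 4 weeks of enriched housing or after normal housing, were sorted with the neuronal nuclear protein NeuN. Cultures of cortical neurons can hold glia too. NeuN+ nuclei are neuronal, and NeuN- nuclei hold glia and all other cells. Every group had 3 values per region except the NeuN+ groups, which had 2. The labels speak of biological triplicates and duplicates but not of separate cultures or animals, so that the authors' p-values measure the spread between these samples. None of 74 genes on 6 lists of cell type markers had a region near its 3' end under this rule, so the labelled cell types could not be checked on these regions. Celf5, on the neuron list, had a region lost after 30 min of KCl. This region lay 192 bp past the listed end of its transcript and in an intron of the annotated gene. It was labelled promoter and left out through the strand handling described below. In bulk chromatin, fewer cells carrying H3.3 at a place and less H3.3 per cell cannot be told apart.

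Each table listed only regions whose values did not overlap between groups (100% of the regions in each of the 5 tables, members and others alike) and whose mean differed about 3-fold or more, the smallest absolute log2 fold change being 1.59. Members near 3' ends therefore did not overlap between groups by selection, and a gene with no region is not shown to be unchanged. The values were whole multiples of a step, the worth of 1 read, that ran from 0.542 to 2.64 normalised reads over the H3.3 libraries. Read through these steps, a gained region held a median of 13.5, 13.0, 14.0, 25.5 and 6.00 reads per library in the KCl or enriched groups at 30 min, 2 hr, 5 hr, NeuN+ and NeuN-, against 3.00, 3.00, 4.00, 4.00 and 1.00 in the control or normally housed groups. Counts this small set the precision of every value below. These read counts are not adjusted for depth. In NeuN+ nuclei 1 read was worth 0.785 and 0.856 normalised reads in enriched libraries and 1.51 and 1.03 in normally housed ones. The medians of the normalised group means at gained members there were 20.5 in enriched and 5.34 in normally housed nuclei. The 2 groups carried different sequencing lane numbers at 30 min, at 2 hr and in NeuN- nuclei, so that lane and group cannot be told apart there. At 5 hr the KCl and the control libraries both carried lane numbers 6, 7 and 8. Lane numbers alone do not show which libraries shared a run. In NeuN+ nuclei the enriched libraries had lane numbers 6 and 7 and the normally housed ones 3 and 5, so lane and group cannot be told apart there either.

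Strand handling differed between the tables and bears on which 3' ends could be seen. In the 30 min, 2 hr and NeuN- tables the column for the transcription start held the smaller coordinate of the gene whatever its strand, and the promoter label followed that column. All 64, 50 and 65 promoter-labelled regions of minus-strand genes in these tables lay within 3000 bp of the gene's 3' end, and 47, 39 and 47 of them were not within that distance of its 5' end. Conversely, none of the 7, 10 and 13 minus-strand members lay within 3000 bp of the 3' end, and 5 of these 30 lay within 3000 bp of the true 5' end, among them the Cst3 region, which lies upstream of its gene, and the Hapln2 region 464 bp inside it. In the 5 hr and NeuN+ tables the labels followed the strand, and 16 of 19 and 43 of 62 minus-strand members lay within 3000 bp of the 3' end.

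**Figure D1:**
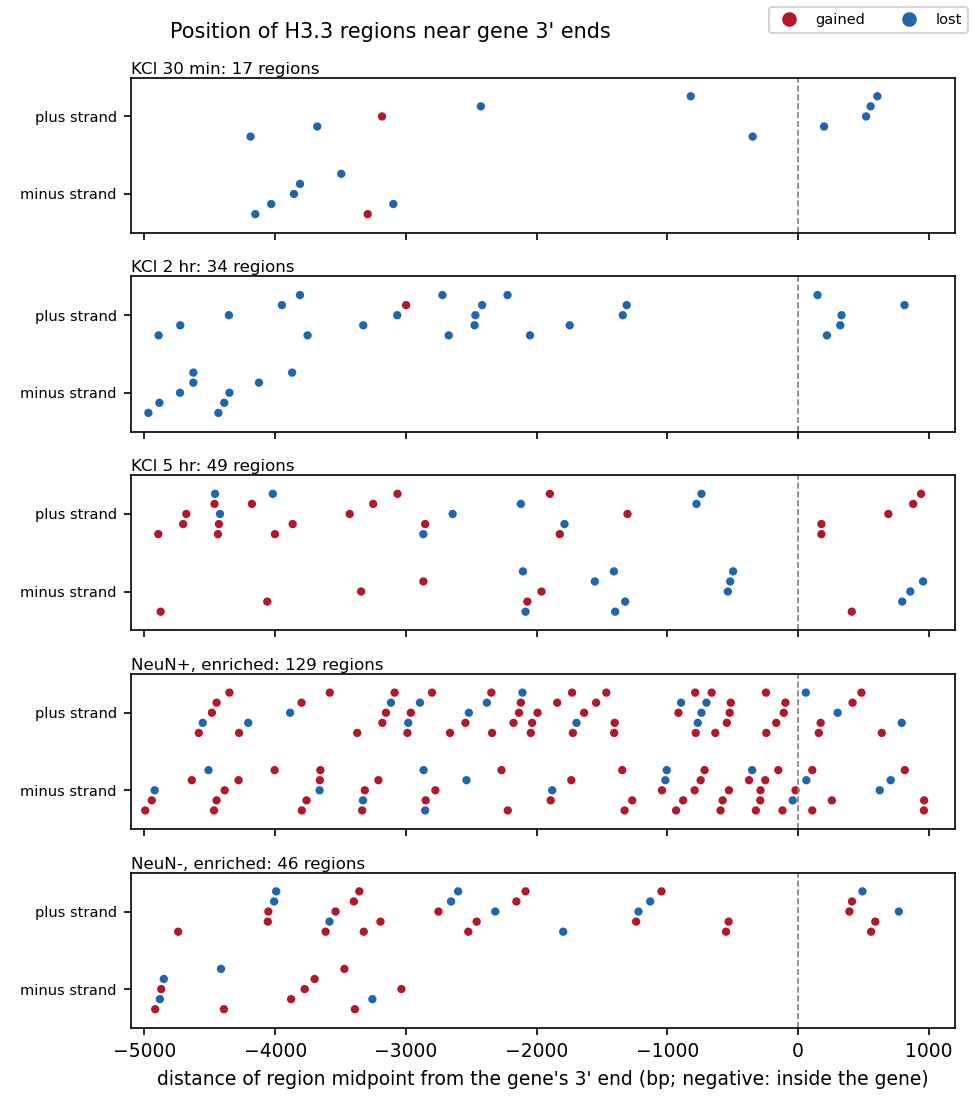
Distance of each region midpoint from the 3' end of its gene in bp (x axis, negative values inside the gene), by table and by the strand of the gene, with gained regions in red and lost regions in blue; height within a strand only separates points. Minus-strand members begin only about 3000 bp inside the gene at 30 min, at 2 hr and in NeuN- nuclei, and reach past the 3' end at 5 hr and in NeuN+ nuclei.

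The regions were short, 200 bp in 185 of 275 and 420 bp at most, and 41 had their midpoint past the 3' end, where the authors' gene body label reached about 1000 bp beyond the transcript. By GENCODE annotation of the same build, 162 midpoints lay in introns, 43 in 3' untranslated regions, 27 in coding exons, 34 downstream of the gene and 7 in non-coding exons. The authors' transcript end lay within 1000 bp of the annotated end of the whole gene for 179 members, and the other ends lay farther from it or were not matched. By table these were 7 of 17 at 30 min, 19 of 34 at 2 hr and 44 of 49 at 5 hr. In NeuN+ nuclei they were 86 of 129 and in NeuN- nuclei 23 of 46. The sequences of 13 regions outside untranslated regions are shown (mm9, read 5' to 3' on the strand of the gene, CG dinucleotides in capitals), because they span the gained and lost ends of each table and their base composition differs:
Pkp4, gained after 30 min of KCl, chr2:59049821-59050020, plus strand: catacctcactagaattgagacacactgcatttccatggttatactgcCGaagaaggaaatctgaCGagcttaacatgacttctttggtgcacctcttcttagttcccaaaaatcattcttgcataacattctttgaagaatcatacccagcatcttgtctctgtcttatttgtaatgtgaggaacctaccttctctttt
Smndc1, lost after 30 min of KCl, chr19:53457461-53457660, minus strand: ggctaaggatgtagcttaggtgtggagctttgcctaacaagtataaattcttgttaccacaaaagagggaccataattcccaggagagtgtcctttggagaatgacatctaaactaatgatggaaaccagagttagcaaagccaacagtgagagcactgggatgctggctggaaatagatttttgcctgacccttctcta
Tm9sf2, gained after 2 hr of KCl, chr14:122554841-122555040, plus strand: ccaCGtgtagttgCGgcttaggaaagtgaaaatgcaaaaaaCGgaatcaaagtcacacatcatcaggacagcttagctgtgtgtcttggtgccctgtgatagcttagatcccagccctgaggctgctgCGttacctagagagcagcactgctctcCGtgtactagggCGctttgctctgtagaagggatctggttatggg
Baalc, lost after 2 hr of KCl, chr15:38782861-38783060, plus strand: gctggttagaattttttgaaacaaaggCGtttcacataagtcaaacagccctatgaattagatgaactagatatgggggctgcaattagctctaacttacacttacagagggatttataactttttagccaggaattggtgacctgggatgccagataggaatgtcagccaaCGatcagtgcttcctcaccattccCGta
Fos, gained after 5 hr of KCl, chr12:86819001-86819200, plus strand: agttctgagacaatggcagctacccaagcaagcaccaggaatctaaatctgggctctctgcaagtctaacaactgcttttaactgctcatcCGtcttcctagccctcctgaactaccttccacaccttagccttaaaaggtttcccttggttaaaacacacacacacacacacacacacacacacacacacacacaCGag
Shroom3, gained after 5 hr of KCl, chr5:93389981-93390180, plus strand: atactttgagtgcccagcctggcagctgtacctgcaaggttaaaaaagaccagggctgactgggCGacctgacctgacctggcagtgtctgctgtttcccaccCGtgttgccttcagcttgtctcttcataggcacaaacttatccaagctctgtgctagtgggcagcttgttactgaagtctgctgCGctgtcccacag
Ntan1, lost after 5 hr of KCl, chr16:13832781-13833020, plus strand: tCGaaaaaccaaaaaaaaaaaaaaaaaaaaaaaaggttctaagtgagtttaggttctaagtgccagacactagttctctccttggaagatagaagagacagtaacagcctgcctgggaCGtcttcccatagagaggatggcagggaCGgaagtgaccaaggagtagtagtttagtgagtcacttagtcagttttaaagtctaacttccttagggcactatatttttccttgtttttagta
F7, gained in enriched NeuN+ nuclei, chr8:13036341-13036560, plus strand: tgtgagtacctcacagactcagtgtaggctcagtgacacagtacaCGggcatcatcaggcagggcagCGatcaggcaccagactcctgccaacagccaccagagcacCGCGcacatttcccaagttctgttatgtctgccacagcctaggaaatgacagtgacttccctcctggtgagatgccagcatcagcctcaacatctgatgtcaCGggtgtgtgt
Odz3, gained in enriched NeuN+ nuclei, chr8:49314261-49314460, minus strand: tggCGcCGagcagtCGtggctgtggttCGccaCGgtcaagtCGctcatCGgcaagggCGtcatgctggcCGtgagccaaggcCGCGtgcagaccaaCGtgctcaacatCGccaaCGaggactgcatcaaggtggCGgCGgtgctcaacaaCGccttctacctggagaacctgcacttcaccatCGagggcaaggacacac
Ift52, lost in enriched NeuN+ nuclei, chr2:162867561-162867780, plus strand: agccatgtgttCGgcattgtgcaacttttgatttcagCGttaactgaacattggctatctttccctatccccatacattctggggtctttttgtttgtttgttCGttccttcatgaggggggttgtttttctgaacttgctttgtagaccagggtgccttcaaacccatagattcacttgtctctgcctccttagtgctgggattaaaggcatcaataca
Kcna4, lost in enriched NeuN+ nuclei, chr2:107136041-107136240, plus strand: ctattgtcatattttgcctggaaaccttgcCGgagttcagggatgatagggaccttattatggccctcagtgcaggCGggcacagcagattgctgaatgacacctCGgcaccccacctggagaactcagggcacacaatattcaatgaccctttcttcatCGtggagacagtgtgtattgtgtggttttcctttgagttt
Nup214, gained in enriched NeuN- nuclei, chr2:31883781-31884060, plus strand: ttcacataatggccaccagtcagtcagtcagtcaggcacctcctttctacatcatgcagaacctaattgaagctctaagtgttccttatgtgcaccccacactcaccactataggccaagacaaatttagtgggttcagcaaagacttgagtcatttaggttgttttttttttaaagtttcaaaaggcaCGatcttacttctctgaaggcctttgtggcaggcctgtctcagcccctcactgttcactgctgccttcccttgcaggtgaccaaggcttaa
Clns1a, lost in enriched NeuN- nuclei, chr7:104863281-104863480, plus strand: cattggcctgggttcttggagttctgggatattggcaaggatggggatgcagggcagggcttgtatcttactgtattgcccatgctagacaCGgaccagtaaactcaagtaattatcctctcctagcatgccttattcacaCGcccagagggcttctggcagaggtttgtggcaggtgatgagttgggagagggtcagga
The Odz3 region held 18 CG dinucleotides at 62.5% G+C, against 3 at 43.6% in the Ift52 region, 3 at 38.8% in the Ntan1 region and 0 at 43.5% in the Smndc1 region. The Fos sequence ends in a tract of repeated ca, and the Ntan1 sequence opens with a run of a.

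Regions near 3' ends were mostly lost after 30 min and 2 hr of KCl, split after 5 hr, and mostly gained in both kinds of nuclei after enrichment, as were the regions of each whole table. After KCl, 11.8% of the regions near 3' ends were gained at 30 min (2 of 17, exact 95% interval 1.46 to 36.4), 2.94% at 2 hr (1 of 34, 0.0744 to 15.3) and 57.1% at 5 hr (28 of 49, 42.2 to 71.2). Other gene body regions were gained in 18.6%, 12.4% and 44.0%, and all listed regions in 20.1%, 14.4% and 44.2%. After enrichment, 75.2% were gained in NeuN+ nuclei (97 of 129, 66.8 to 82.4) and 67.4% in NeuN- nuclei (31 of 46, 52.0 to 80.5), beside 66.4% and 67.6% of other gene body regions and 71.8% and 70.7% of all listed regions. In each of the 5 tables the share among all listed regions lay inside the interval of the share near 3' ends. The share among other gene body regions lay inside it in 4 of the 5 tables and just below it in NeuN+ nuclei (66.4%, against 66.8 to 82.4). Members made up 7.14%, 9.74% and 12.5% of the gene body regions at 30 min, 2 hr and 5 hr, 18.2% in NeuN+ nuclei and 9.39% in NeuN- nuclei. The strand handling described above applies to the 30 min, 2 hr and NeuN- shares. No test of the shares was made, since the regions had been selected on these libraries. Intervals cover the counting of regions only.

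**Figure D2:**
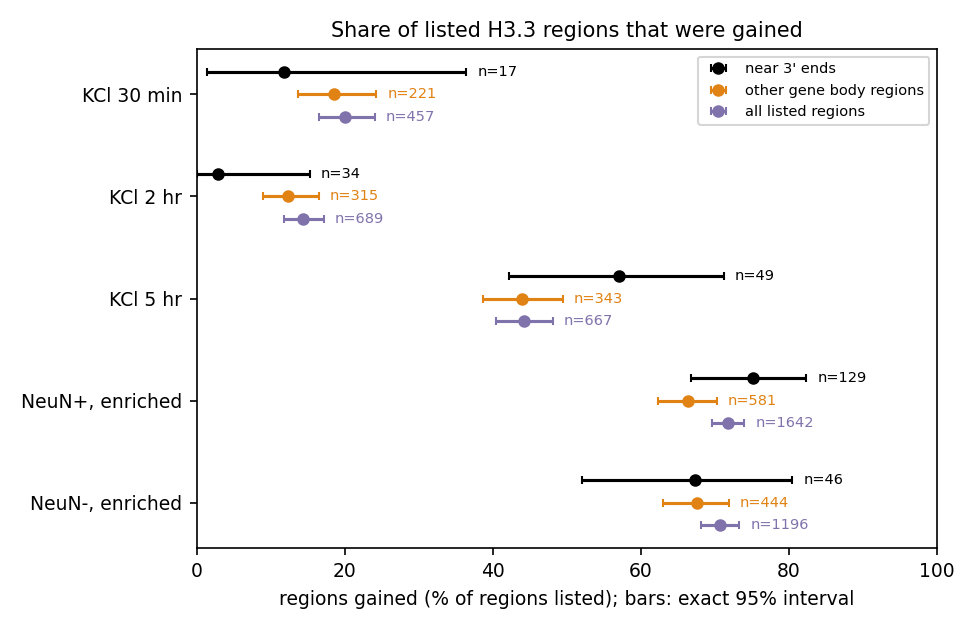
Share of listed H3.3 regions that were gained (x axis, percent) in each table, for regions near 3' ends, other gene body regions and all listed regions, with exact 95% intervals and the number of regions. Shares near 3' ends run from 2.94% after 2 hr of KCl to 75.2% in NeuN+ nuclei and lie near those of the whole tables.

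After 30 min of KCl, 15 of 17 regions near 3' ends had lost H3.3. By the adjusted p of the authors' deposited table, 16 of 17 were at 0.05 or less, 2 gained and 14 lost, where 98.5% of all 457 listed regions were, 19.9% gained and 78.6% lost. H3.3 at Rhd, a blood group antigen gene, was 2.59, 4.21 and 2.06 normalised reads in the KCl libraries, against 15.2, 12.5 and 12.7 in the control libraries, in an intron 2426 bp before the 3' end. At Smndc1, which encodes a splicing factor, counts were 4.32, 2.10 and 1.03 in KCl and 11.4, 16.6 and 10.7 in control. All KCl values of both genes lay below all control values, and the authors' deposited table gave log2 fold changes of -2.19 and -2.38 with adjusted p of 0.0151 and 0.0163. Rngtt, which encodes the mRNA capping enzyme, had a region 522 bp past the listed end of its transcript and in the 3' untranslated region of a longer one. It held 3.46, 5.26 and 3.09 normalised reads in KCl and 16.48, 14.99 and 10.74 in control. At 1810055G02Rik, 200 bp past the 3' end, counts were 3.46, 4.21 and 4.12 in KCl and 16.48, 12.49 and 14.65 in control, and every KCl value lay below every control value. Ict1, whose product works in the mitochondrial ribosome, had the member nearest to a 3' end on the inner side, 346 bp before it, and the one member not called (0.860, 5.26 and 8.23 in KCl, 12.7, 15.0 and 15.6 in control, adjusted p = 0.0816 in the authors' deposited table).

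Both gained regions at 30 min passed at an adjusted p of 0.0257 in the authors' deposited table. Plagl2 encodes a zinc finger transcription factor, and its coding exon region held 14.7, 18.9 and 10.3 normalised reads in KCl and 3.80, 5.83 and 0.980 in control. In an intron of Pkp4, a plakophilin gene of cell junctions, counts were 13.8, 11.6 and 9.26 in KCl, against 2.54, 2.50 and 3.91 in control. The log2 fold changes in the authors' deposited table were 2.05 and 1.95. Hapln2, a link protein gene of the extracellular matrix, was among the 5 lost regions of smallest p (2.59, 5.26 and 1.03 in KCl, 13.9, 12.5 and 11.7 in control), but its region is the one near the true 5' end described above.

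After 2 hr of KCl, 33 of 34 regions near 3' ends had lost H3.3, and 33 of 34 had an adjusted p of 0.05 or less in the authors' deposited table, 1 gained and 32 lost, beside 99.6% of all 689 listed regions, 14.2% gained and 85.3% lost. The lowest p belonged to Arl5b, a gene for a small GTPase of membrane traffic, in whose 3' untranslated region (chr2:15001681-15002040) counts were 2.76, 6.06 and 8.17 in KCl and 22.4, 17.5 and 23.3 in control. Kbtbd11, a kelch repeat gene, had 8.27, 5.30 and 4.09 in KCl and 18.3, 20.0 and 23.3 in control, also in the 3' untranslated region. The lowest control value of either gene was more than 2 times the highest KCl value. The authors' deposited table gave log2 fold changes of -1.90 and -1.80 and adjusted p of 0.00467 and 0.00892.

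Other named members at 2 hr lay on both sides of the end. Baalc, a gene expressed in brain and in acute leukaemia, had its region 150 bp past the 3' end, with 0.920, 2.27 and 2.72 normalised reads in KCl against 12.2, 10.0 and 12.3 in control and a log2 fold change of -2.54 in the authors' deposited table. Gbf1, whose product activates ARF GTPases at the Golgi, had 5.51, 3.03 and 6.81 in KCl and 18.3, 16.7 and 13.5 in control, in a coding exon. Relative to input the order of Gbf1 turned, at 3.36 in KCl and 2.91 in control in the authors' deposited table. At 5430435G22Rik counts were 1.84, 2.27 and 5.45 in KCl and 12.2, 13.3 and 12.3 in control. Sema4b, a semaphorin gene, had the inner region nearest to a 3' end, 1310 bp before it. This listed end lay over 1000 bp from the annotated gene end. Counts at Sema4b were 3.68, 4.55 and 0 in KCl and 11.2, 12.5 and 12.3 in control. The gained exception was in an intron of Tm9sf2, a gene of the transmembrane 9 superfamily, with 11.9, 10.6 and 10.9 in KCl and 3.05, 2.50 and 3.68 in control (log2 fold change 1.86, adjusted p = 0.0219 in the authors' deposited table).

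**Figure D3:**
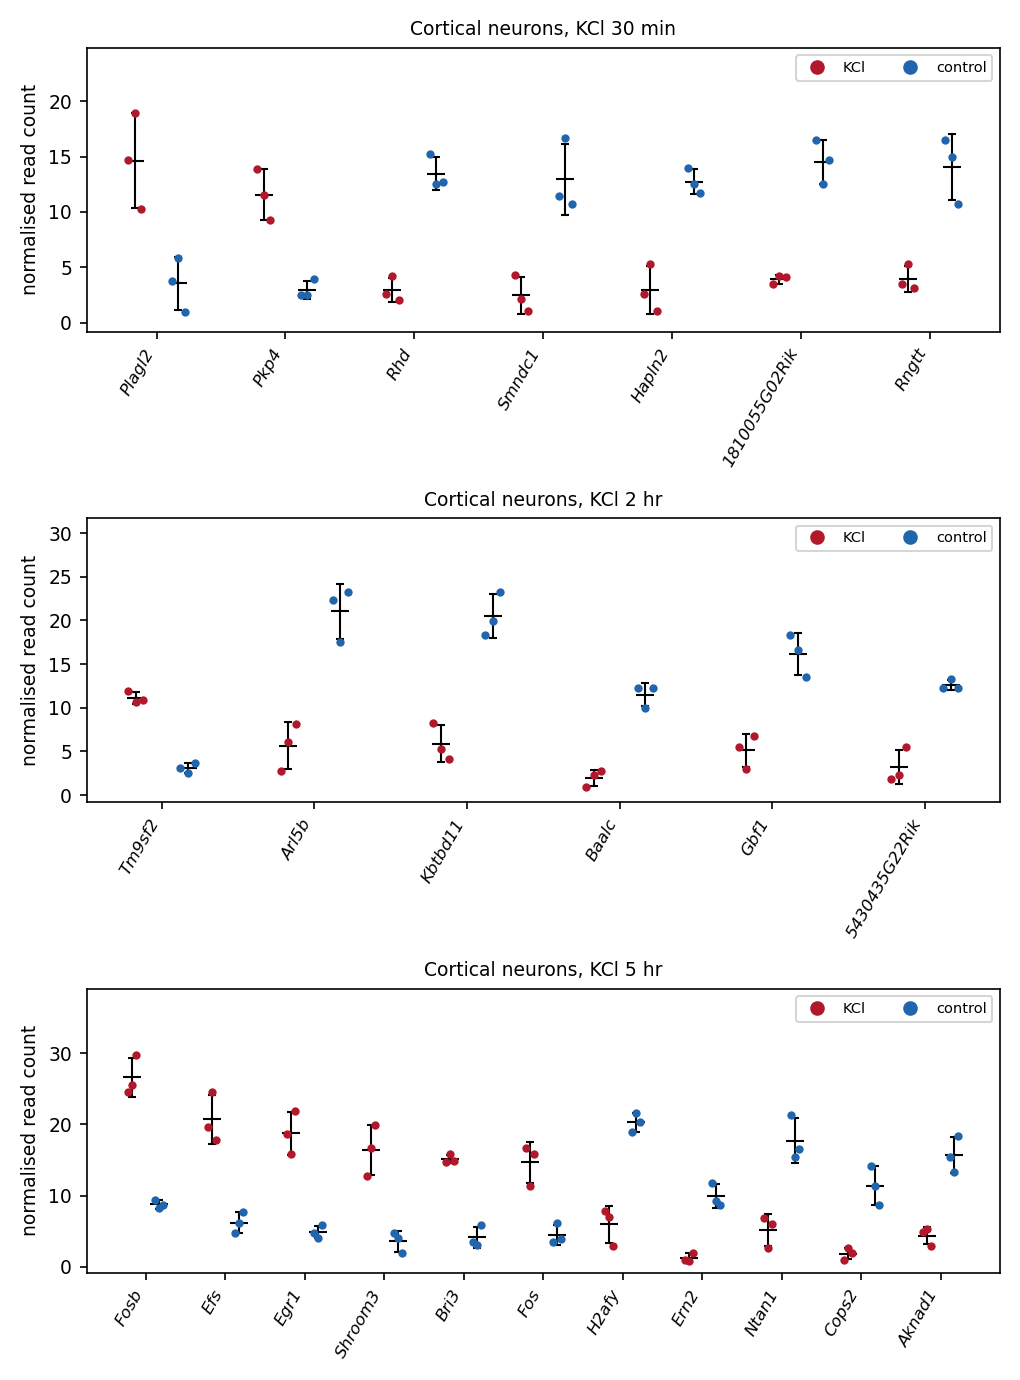
Normalised read count (y axis) of each library at named members after 30 min, 2 hr and 5 hr of KCl, with KCl libraries in red left of control libraries in blue; black bars are the mean and SD over 3 libraries. No KCl and control values overlap at any gene, by the selection of the tables; at Fosb the 3 KCl libraries lie between 24.6 and 29.8 and the control libraries between 8.20 and 9.44.

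After 5 hr of KCl, 28 of 49 regions near 3' ends were gained and 21 lost. Only 5 had an adjusted p of 0.05 or less in the authors' deposited table, 4 gained and 1 lost, and 3.00% of all 667 listed regions did, 1.65% gained and 1.35% lost. Fosb, Egr1 and Fos, transcription factor genes of the immediate-early class, which neurons switch on soon after activity, were members, all gained, and no other gene of the 43 on that list had one in any of the 5 tables. In Fosb the region lay in an intron (chr7:19890721-19891100) 2866 bp before the 3' end and held 24.6, 25.5 and 29.8 normalised reads in KCl, against 9.44, 8.20 and 8.73 in control. Egr1 had its region 942 bp past the end of the transcript, with 18.7, 15.8 and 21.8 in KCl and 4.72, 4.10 and 5.82 in control. The Fos region lay 882 bp past the end and held 16.7, 11.4 and 15.9 in KCl and 3.54, 6.15 and 3.88 in control. In all 3 genes the lowest KCl library stood above the highest control library, and the difference passed at Fosb and Egr1 but not at Fos, with adjusted p of 0.0347, 0.0399 and 0.108 in the authors' deposited table. The regions of Fos and Egr1 lie downstream of the annotated gene, and the start of another annotated gene lies 788 bp from the midpoint of the Egr1 region, closer than the 3' end of Egr1.

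The other gained regions that passed at 5 hr were at Efs, which encodes a docking protein of the Cas family, and at Shroom3, an actin-binding protein that shapes epithelial cells. In a coding exon of Efs counts were 19.7, 24.6 and 17.9 in KCl and 4.72, 6.15 and 7.76 in control. Shroom3 had 12.8, 16.7 and 19.8 in KCl and 4.72, 4.10 and 1.94 in control. Log2 fold changes in the authors' deposited table were 1.74 and 2.20, both at an adjusted p of 0.0399. Bri3 ranked next without passing, at 14.8, 15.8 and 14.9 in KCl and 3.54, 3.08 and 5.82 in control. The gained region nearest to a 3' end on the outer side was 180 bp past Fcgr4, an Fc receptor gene, with 13.8, 13.2 and 16.9 in KCl and 5.90, 5.13 and 2.91 in control (adjusted p = 0.108 in the authors' deposited table).

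The lost region that passed at 5 hr was in the 3' untranslated region (chr13:56175361-56175640) of H2afy, the gene of the histone variant macroH2A and the one gene of the 99 on the chromatin list with a member. It held 7.87, 7.02 and 2.98 normalised reads in KCl, against 18.9, 21.5 and 20.4 in control (log2 fold change -1.77, adjusted p = 0.0399 in the authors' deposited table). Cacna1g, the gene of a T-type calcium channel, had the inner region nearest to a 3' end, 496 bp before it, with 3.93, 6.14 and 2.98 in KCl and 15.3, 12.3 and 14.6 in control, and did not pass (adjusted p = 0.110 in the authors' deposited table). Ern2, a sensor of stress in the endoplasmic reticulum, had 0.980, 0.880 and 1.98 in KCl and 11.8, 9.23 and 8.73 in control. These KCl values are 1, 1 and 2 reads. Ntan1, an amidase gene of the N-end rule pathway, had 6.88, 2.63 and 5.95 in KCl and 21.25, 15.38 and 16.49 in control. Cops2, a subunit of the COP9 signalosome, had 0.980, 2.63 and 1.98 in KCl and 14.2, 11.3 and 8.73 in control, and Aknad1 had 4.92, 5.27 and 2.98 in KCl and 15.3, 13.3 and 18.4 in control. The adjusted p of these last 4 ran from 0.0693 to 0.0815 in the authors' deposited table.

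Within the 49 members at 5 hr the direction differed with place. Of those within 2500 bp of the 3' end 11 of 27 were gained (40.7%, exact 95% interval 22.4 to 61.2), and of those farther away 17 of 22 (77.3%, 54.6 to 92.2). Of 10 midpoints in 3' untranslated regions 8 were lost, while 6 of 7 downstream of the gene and 15 of 26 in introns were gained. Of 11 members in genes of 10000 bp or less, 10 were gained. On plus-strand genes 21 of 30 were gained and on minus-strand genes 7 of 19. These splits were looked for after the values were seen, only 5 of the 49 regions passed the authors' adjusted p, and base composition moved with the same direction, as given below.

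In NeuN+ nuclei after enrichment, 97 of 129 regions near 3' ends were gained and 32 lost, and 127 of 129 had an adjusted p of 0.05 or less in the authors' deposited table, 95 gained and 32 lost, beside 97.8% of all 1642 listed regions, 70.1% gained and 27.7% lost. The nearest members straddled the end: 52 of 129 midpoints lay within 1000 bp of it, and 6 regions covered it, 3 gained (Cd5l, Lmf1 and Ttf2) and 3 lost (Acacb, Faim2 and Nnmt). Ttf2 encodes a factor that releases RNA polymerase II from the template, and its region, with the midpoint 18.5 bp before the end, held 18.8 and 24.0 normalised reads in enriched nuclei and 1.51 and 9.25 in normally housed nuclei. The normally housed values differ widely, 1 and 9 reads, and the region did not pass (adjusted p = 0.364 in the authors' deposited table). At Acacb, an acetyl-CoA carboxylase gene, 60.5 bp past the end, counts were 9.42 and 5.14 in enriched nuclei and 22.6 and 24.7 in normally housed nuclei. At Faim2, an inhibitor of Fas-driven cell death, 64.5 bp past the end, they were 8.63 and 5.99 in enriched nuclei and 27.1 and 22.6 in normally housed nuclei.

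The gained member of smallest p in NeuN+ nuclei was in an intron of Nfatc1, a transcription factor gene that answers to calcium through calcineurin. It had 49.5 and 39.4 normalised reads in enriched nuclei, against 10.5 and 12.3 in normally housed nuclei, and at 420 bp it was the longest member. Galnt12, an enzyme gene of O-glycosylation, had 33.0 and 35.1 in enriched and 7.53 and 11.3 in normally housed nuclei. At 4930539E08Rik counts were 33.0 and 38.5 in enriched and 13.6 and 10.3 in normally housed nuclei. The authors' deposited table gave log2 fold changes of 1.96, 1.85 and 1.59 at adjusted p of 0.0116, 0.0124 and 0.0154. Exosc10, the gene of a nuclease of the RNA exosome that trims the 3' ends of nuclear RNA, had its region 160 bp past the end, with 29.8 and 25.7 in enriched and 10.5 and 5.14 in normally housed nuclei. Prkd1, a protein kinase D gene, had 19.6 and 21.4 in enriched and 6.02 and 2.05 in normally housed nuclei, and F7, the gene of a coagulation factor, had 21.2 and 21.4 against 3.01 and 5.14, at 642 bp past its end and 858 bp from the start of another annotated gene.

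Lost members in NeuN+ nuclei were led by Ift52, whose product carries cargo along cilia. Its intronic region held 1.57 and 3.42 normalised reads in enriched nuclei and 16.6 and 18.5 in normally housed nuclei, a log2 fold change of -2.81 at an adjusted p of 0.0116 in the authors' deposited table. Rfx3, a transcription factor gene of ciliated cells, had 2 lost members near the ends of different transcripts. The intronic one had 3.14 and 4.28 in enriched and 19.6 and 17.5 in normally housed nuclei, and the one in the 3' untranslated region 6.28 and 5.14 in enriched and 19.6 and 21.6 in normally housed nuclei. Both were lower in enriched nuclei, with log2 fold changes of -2.32 and -1.85 in the authors' deposited table. Snx14, a sorting nexin gene, had 3.92 and 3.42 in enriched and 16.6 and 19.5 in normally housed nuclei. Nkain4, which encodes a partner of the sodium pump, had 7.85 and 4.28 in enriched and 19.6 and 25.7 in normally housed nuclei, and the non-coding gene Gm12648 had 7.85 and 4.28 against 25.6 and 19.5.

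Members of the chosen gene lists were few in NeuN+ nuclei. On a list of 48 voltage-gated and calcium-activated ion channel genes, only Kcna4, of a voltage-gated potassium channel, had a member there. Kcna4 was lost in its coding exon, with 4.71 and 6.85 normalised reads in enriched and 19.6 and 20.6 in normally housed nuclei. Odz3, a teneurin gene of synaptic adhesion, was gained in a coding exon, with 19.6 and 25.7 in enriched and 4.52 and 7.19 in normally housed nuclei. Of 36 genes on a list of mRNA 3' end formation and termination, Zc3h3 alone had a member in any table. Zc3h3 was gained in an intron, with 29.0 and 26.5 in enriched and 12.0 and 6.16 in normally housed nuclei. The log2 fold changes of Kcna4, Odz3 and Zc3h3 in the authors' deposited table were -1.80, 1.95 and 1.61, at adjusted p of 0.0344, 0.0395 and 0.0297. Glutamate, GABA and glycine receptors (44 genes), housekeeping genes (19), histone gene clusters and olfactory receptors had no member near a 3' end in any of the 5 tables. Genes of the same kinds that were not on a list were not counted. Ttf2, a gained member described above, was not on the list of mRNA 3' end formation and termination. All list counts here follow the authors' labels. At 30 min, at 2 hr and in NeuN- nuclei, these kept out regions within 3000 bp of minus-strand 3' ends. H3f3a, Gabrg3 and Bsn had such regions, given below.

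**Figure D4:**
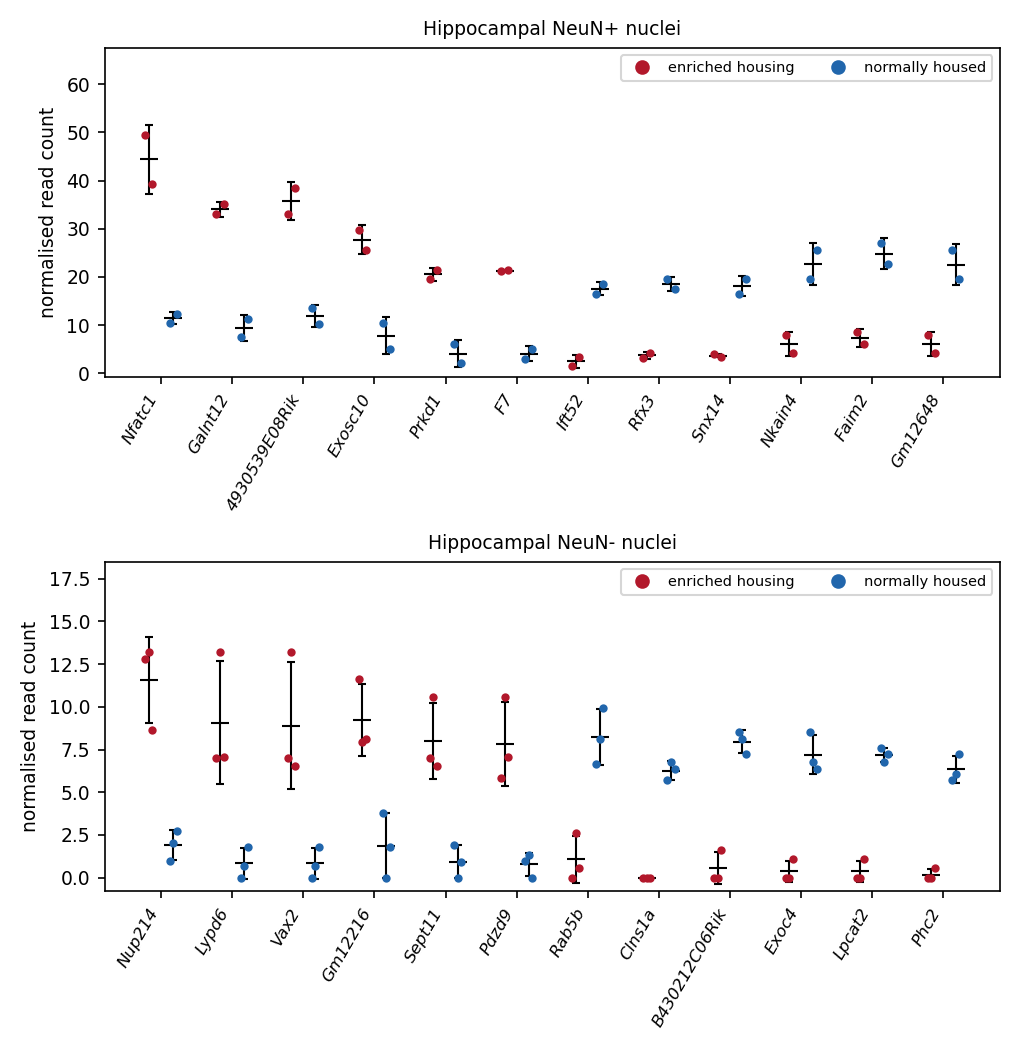
Normalised read count (y axis) of each library at named members in NeuN+ and NeuN- nuclei, with enriched libraries in red left of normally housed libraries in blue; black bars are the mean and SD over 2 (NeuN+) or 3 (NeuN-) libraries. Groups do not overlap at any gene, by the selection of the tables, and the levels of NeuN- nuclei reach down to 0, as at Clns1a.

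In NeuN- nuclei after enrichment, 31 of 46 regions near 3' ends were gained and 15 lost, and all 46 had an adjusted p of 0.05 or less in the authors' deposited table, as did 99.8% of all 1196 listed regions, 70.6% gained and 29.3% lost. The values rest on few reads: 27 of 93 normally housed values at gained members and 25 of 45 enriched values at lost members were 0, and in the second enriched library 1 read was worth 2.64. Nup214, a nuclear pore gene, had 12.8, 13.2 and 8.67 normalised reads in enriched and 0.950, 2.03 and 2.71 in normally housed nuclei. These are 11, 5 and 16 reads in enriched and 1, 3 and 3 reads in normally housed nuclei. Lypd6 had 6.98, 13.2 and 7.05 in enriched and 0, 0.680 and 1.81 in normally housed nuclei. Vax2, a homeobox gene of the ventral eye, had 6.98, 13.2 and 6.51 in enriched and 0, 0.680 and 1.81 in normally housed nuclei. All 3 regions were intronic and shared an adjusted p of 0.00361 in the authors' deposited table.

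Further gained members were Gm12216, Sept11, a septin gene, and Pdzd9. In Gm12216 counts were 11.6, 7.93 and 8.13 in enriched and 3.79, 0 and 1.81 in normally housed nuclei. Sept11, in the 3' untranslated region, had 6.98, 10.6 and 6.51 in enriched and 1.90, 0 and 0.900 in normally housed nuclei. Pdzd9 had 5.82, 10.6 and 7.05 in enriched and 0.950, 1.35 and 0 in normally housed nuclei, and all 3 genes stood at an adjusted p of 0.00466 in the authors' deposited table. Erc1, a scaffold gene of the presynaptic active zone and the one of 53 synaptic genes with a member, had 9.31, 5.28 and 5.96 in enriched and 0.950, 1.35 and 0 in normally housed nuclei. On either side of the end, Ankhd1, 530 bp before it, had 6.98, 5.28 and 5.42 in enriched and 2.84, 0 and 0 in normally housed nuclei. Taok3, a kinase gene, 394 bp past the listed end and in an intron of a longer transcript, had 5.82, 21.1 and 6.51 in enriched and 3.79, 3.38 and 1.81 in normally housed nuclei. The second enriched value of Taok3 stands above the other enriched values by over 3 times and is 8 reads.

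Among the lost members in NeuN- nuclei was Clns1a, whose product takes part in spliceosome assembly, with 0 reads in all 3 enriched libraries and 5.69, 6.76 and 6.33 normalised reads in normally housed nuclei, which are 6, 10 and 7 reads. The authors' deposited table gave it no finite fold change and an adjusted p of 0.00327. Rab5b, a GTPase gene of early endosomes, had 0, 2.64 and 0.540 in enriched and 6.63, 8.11 and 9.95 in normally housed nuclei. Phc2 is a Polycomb gene that was not on the chromatin list. It had 0, 0 and 0.540 in enriched and 5.69, 6.08 and 7.23 in normally housed nuclei, a single read against 6, 9 and 8. Exoc4, a subunit of the exocyst, had 0, 0 and 1.08 in enriched and 8.53, 6.76 and 6.33 in normally housed nuclei, at 772 bp past its end. Lpcat2, an enzyme of phospholipid remodelling, had 0, 0 and 1.08 in enriched and 7.58, 6.76 and 7.23 in normally housed nuclei. The B430212C06Rik region (0, 0 and 1.63 in enriched, 8.53, 8.11 and 7.23 in normally housed nuclei) lies 1924 bp from the true 5' end of its gene. With 0 to 3 reads in the enriched libraries, the size of these losses is poorly fixed.

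No region near a 3' end overlapped one of another table, and 2 genes had members in more than one table, both in the 2 hr KCl table and in NeuN+ nuclei, with opposite directions. They are 5.88% of the 34 genes at 2 hr and 1.57% of the 127 in NeuN+ nuclei. Eif4h, a gene of translation initiation, lost H3.3 in an intron 4350 bp before its 3' end after KCl, with 1.84, 5.30 and 5.45 normalised reads in KCl and 15.3, 12.5 and 14.7 in control. In NeuN+ nuclei it gained at 714 bp and at 1734 bp before the end, with 26.7 and 30.8, and 23.6 and 18.8, in enriched nuclei and 6.02 and 12.3, and 7.53 and 6.16, in normally housed nuclei. Nfia, a nuclear factor I gene of neural and glial development, had 2.76, 2.27 and 2.72 in KCl and 13.2, 10.0 and 11.1 in control at 2 hr, and 25.1 and 21.4 in enriched and 7.53 and 6.16 in normally housed NeuN+ nuclei, near the ends of different transcripts. The tables differ in cells, stimulus and normalisation, so levels are not compared between them. Siah2, a ubiquitin ligase gene, had regions only 20 bases apart in 2 tables. One was gained after 5 hr (10.8, 14.9 and 10.9 in KCl, 0, 5.13 and 2.91 in control, adjusted p = 0.0851 in the authors' deposited table). The other was lost after 30 min (6.05, 2.10 and 5.15 in KCl, 11.4, 15.0 and 16.6 in control, adjusted p = 0.0266 in the authors' deposited table). It was labelled promoter through the strand handling and lay 622 bp before a 3' end. Tgfbr3, a gained member in NeuN+ nuclei, also had a promoter-labelled region lost at 2 hr, 1682 bp before a 3' end.

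Where the promoter-labelled regions at minus-strand 3' ends were added, from 5000 bp before to 1000 bp past the end, and regions within 3000 bp of a 5' end were left out, 48 regions at 30 min, 61 at 2 hr and 76 in NeuN- nuclei lay near 3' ends. In these sets 16.7%, 4.92% and 67.1% of the regions were gained. Among the 93 added regions, named after their values were seen, was one in H3f3a, a gene that encodes H3.3 itself, 1898 bp before the 3' end, with 6.05, 3.15 and 3.09 normalised reads after 30 min of KCl and 20.3, 10.8 and 13.7 in control. It did not pass (adjusted p = 0.0592 in the authors' deposited table). Ncor1, a corepressor gene, had 2.59, 3.15 and 3.09 after 30 min of KCl and 19.0, 14.2 and 13.7 in control, an adjusted p of 0.00552 in the authors' deposited table. At Gabrg3, a GABA receptor subunit gene, counts were 5.51, 6.82 and 5.45 after 2 hr of KCl and 20.4, 19.2 and 14.7 in control. In NeuN- nuclei Bsn, the gene of the active zone protein Bassoon, had 2.33, 2.64 and 2.17 in enriched and 13.3, 10.1 and 9.95 in normally housed nuclei, and Elavl1, an RNA-binding protein gene, 5.82, 10.6 and 8.13 in enriched and 0, 0.680 and 1.81 in normally housed nuclei.

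Base composition differed with direction in some tables. At 5 hr the gained members had a median of 53.3% G+C and the lost members 45.0%, and in NeuN+ nuclei 54.1% and 46.2%. In NeuN- nuclei the order was turned, at 47.5% gained and 49.5% lost, and the 30 min and 2 hr tables had 2 and 1 gained members. Other gene body regions had medians of 50.4% gained and 43.2% lost at 5 hr, 53.2% and 46.0% in NeuN+ nuclei, and 46.5% and 48.0% in NeuN- nuclei. At 30 min they ran the other way from 5 hr, with 42.5% gained and 47.5% lost, and at 2 hr they had 49.1% gained and 44.5% lost. The part of base composition in the counts was not tested. A ratio to input was finite for 271 members and pointed the same way as the counts in 268 of them, the others being 2410001C21Rik at 30 min and Gbf1 and Tbc1d14 at 2 hr.

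**Figure D5:**
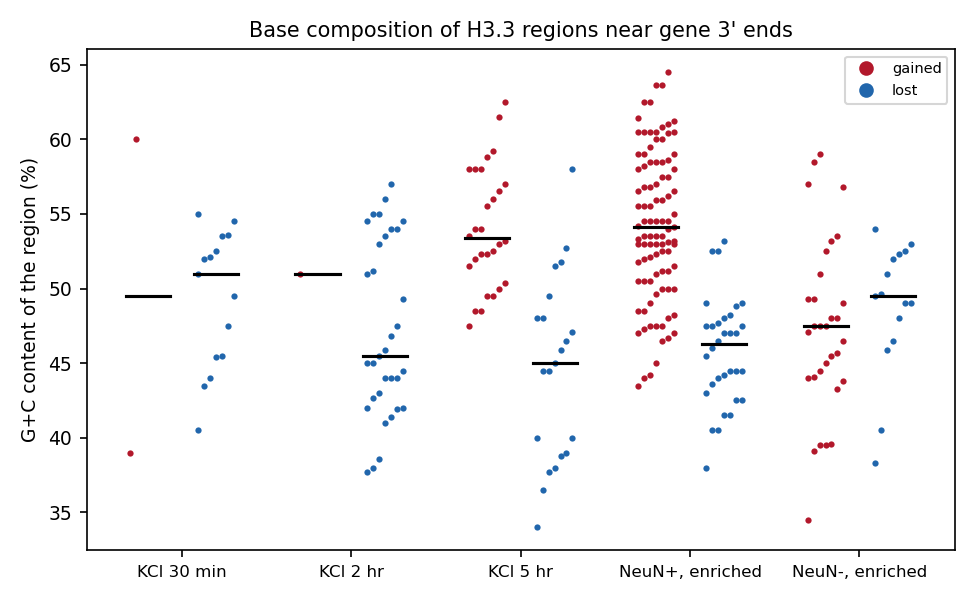
G+C content of each region near a 3' end (y axis, percent) by table, gained regions in red left of lost regions in blue, with black lines at the medians. Gained members lie higher at 5 hr (medians 53.3% and 45.0%) and in NeuN+ nuclei (54.1% and 46.2%), and not in NeuN- nuclei (47.5% and 49.5%).

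Poly(A) signal hexamers, the words that mark where a transcript is cleaved, were searched as AATAAA or ATTAAA in the central 200 bases of each region. On the strand of the gene 30 of 275 members held one (10.9%), and 212 of 1904 other gene body regions (11.1%); on either strand the shares were 20.0% and 22.5%. At 30 min, at 2 hr and in NeuN- nuclei, all minus-strand members lay over 3000 bp from the 3' end. The promoter-labelled regions nearer to those ends were not counted. Listed ends were also not always the annotated end of the gene, so these shares do not describe gene ends alone. At 5 hr the hexamer was in 1 of 28 gained and 10 of 21 lost members (3.57% and 47.6%), beside 9.93% and 19.3% of other gene body regions. In NeuN+ nuclei it was in 5 of 97 gained and 9 of 32 lost members (5.15% and 28.1%), beside 4.92% and 12.3%. In NeuN- nuclei it was in 1 of 31 gained and 0 of 15 lost members (3.23% and 0%), beside 12.7% and 11.8%. Among lost members it was in 6.67% at 30 min and 9.09% at 2 hr, beside 10.0% and 10.9% of other lost gene body regions. The hexamers are rich in A and T, and their part in the direction beside that of G+C content was not tested.

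CATCH-IT, which captures newly made histones by a metabolic tag and so reads turnover, was run on the 5 hr cultures, and its table lists 53020 changed regions. No H3.3 region near a 3' end after 30 min, 2 hr or 5 hr of KCl overlapped one, where 1.09%, 1.60% and 0.900% of all listed H3.3 regions did. In NeuN+ nuclei 6 of 129 members overlapped one (4.65%, against 1.58% of all listed), 3 in the same direction and 3 in the opposite one. In NeuN- nuclei 1 of 46 did. Direction here is KCl against control in cultures for CATCH-IT, and enriched against normal housing in nuclei for H3.3, which are unlike comparisons. The Galnt12 region, gained in enriched nuclei, shared 20 bases with a CATCH-IT region of 8.02, 0.530 and 8.15 normalised reads in KCl and 0 in all 3 control libraries. The Odz3 region, also gained, shared 160 bases with one of 0 in all 3 KCl libraries and 0.630, 5.54 and 14.2 in control. None of the 7 regions in the H3.1/2 table overlapped a member.

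The values on each side of the 5000 bp limit were as follows. The outermost member at 5 hr was at Socs7, 4894 bp from the end, with a mean of 14.9 ± 0.0889 in KCl and 4.93 ± 1.61 in control (SD over 3 libraries), and the first gene body region beyond the limit was at Ccdc76, 5048 bp away, with 2.12 ± 2.20 in KCl and 10.7 ± 2.15 in control. In NeuN+ nuclei Mmp11, at 4994 bp, had 19.7 ± 0.0495 in enriched and 4.55 ± 2.08 in normally housed nuclei, and Ins2, at 5080 bp, 16.8 ± 1.61 in enriched and 4.07 ± 1.51 in normally housed nuclei (SD over 2 libraries). In NeuN- nuclei Gm12216, at 4918 bp, had 9.23 ± 2.08 in enriched and 1.87 ± 1.90 in normally housed nuclei, and Mapksp1, at 5088 bp, 0.180 ± 0.312 in enriched and 5.73 ± 0.327 in normally housed nuclei. St8sia1, 4970 bp from its end at 2 hr, had 3.41 ± 3.41 in KCl and 12.8 ± 1.79 in control, and Ptdss2, at 5092 bp, 2.18 ± 1.96 in KCl and 10.8 ± 0.654 in control. The outermost member at 30 min was 2410001C21Rik, 4188 bp away, with 3.51 ± 1.23 in KCl and 13.2 ± 2.94 in control (relative to input 2.24 in KCl and 1.19 in control in the authors' deposited table, the opposite order), and the next region was at Cdk14, 5110 bp away, with 3.82 ± 1.60 in KCl and 13.4 ± 2.95 in control.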

How the data were processed

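The submitters' processing notes name the aligner Bowtie (0.12.7), the interval tool bedtools (2.16.2) and, as genome, mm9. Which program called the regions is not stated there. Per the file headers, the authors deposited for each listed region normalised read counts of the libraries, packed in a cell without library names, and their group mean, a coverage signal. They also deposited a ratio of each mean to input, a log2 fold change and p-values with adjusted p-values, which were used as they stood. The normalisation, done by the authors within each table, is not given, so levels were never compared between tables.

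From these, midpoints, distances to strand-aware 3' ends, directions and shares with exact (Clopper-Pearson) 95% intervals were computed (Python 3.11.15, pandas 2.3.3, scipy 1.17.1, pysam 0.24.0). The mean of the packed values matched the deposited mean within 0.00667. The worth of 1 read per library was read from low values, which were whole multiples within 0.1 in 100% of cases. No count test was run, because the tables hold only regions selected on these libraries. The control group at 30 min has 4 libraries in the labels, one a repeat, and 3 values. Gene context and sequences came from GENCODE vM1 and NCBIM37 (the same build). Of the members, 274 of 275 matched a gene of the annotation. Unused columns with values of single samples: 0.

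Genes were named by a rule: per table the gained and lost members of smallest adjusted p (5 each way, 6 in nuclei), members in several tables, members of 16 gene lists and the members nearest the 3' end. The members, lists and rule were chosen with earlier results of these data known, and the strand-corrected sets after seeing the files. Alternatives were other windows (2500 and 10000 bp), genes over 10000 bp, other p limits, direction relative to input, leaving out each value, and other overlaps with CATCH-IT.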

Additional observations from a re-analysis of the deposited data

How the results depend on the processing

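The gained share near 3' ends stayed within its interval under 10000 bp windows, genes over 10000 bp only, direction relative to input, plus-strand genes only and the strand-corrected sets. Leaving out any 1 value gave the same shares, 11.8%, 2.94%, 57.1%, 75.2% and 67.4% for 30 min, 2 hr, 5 hr, NeuN+ and NeuN-, by construction, since the groups of a listed region do not overlap. Within 2500 bp the share was 0% at 30 min, 0% at 2 hr and 40.7% at 5 hr, and for the 5 that passed at 5 hr it was 80.0%; fewer regions entered, and the cause was not tested. At an adjusted p of 0.01 or less by the authors' deposited values, 0 members passed at 30 min (16 at 0.05), 2 at 2 hr (33), 0 at 5 hr (5), 0 in NeuN+ nuclei (127) and 44 in NeuN- nuclei (46), where 2.41%, 2.47%, 0.150%, 0.548% and 97.2% of all listed regions did. With 3' ends by the gene's own strand the members at 0.05 or less numbered 45 at 30 min, 60 at 2 hr and 76 in NeuN- nuclei, more because more regions entered. With a CATCH-IT region allowed within 1000 bp, members beside one numbered 1, 1, 1, 10 and 2 in the 5 tables, against 0, 0, 0, 6 and 1 with overlap. No paired analysis was possible because the packed values carry no library names and no test of values was run. Regions under about 3-fold change are not listed, so smaller changes were not analysed here.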

Other observations

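Of the 271 genes with a region near a 3' end, 50 had a further listed H3.3 region at any distance, 36 of them in another table. Pkp4 gained H3.3 after 30 min of KCl near the end of its listed transcript, which lay over 1000 bp from the annotated gene end. It had another gene body region lost after 2 hr of KCl, 41060 bp away, and one gained in enriched NeuN- nuclei, 34980 bp away. Shroom3, gained at 5 hr, had another gene body region gained at 2 hr, 48240 bp away, and a promoter region gained in enriched NeuN+ nuclei, 63010 bp away.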
